A study of Homo sapiens with 9 samples.

Results

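Neurofilaments are the intermediate filaments of neurons, and they are described here together with stathmins, microtubule-associated proteins, the ubiquitin hydrolase UCHL1 and the transcription factor SOX11 in 2 human cell lines. The list held 10 genes of the 26625 that could be named in the count tables: NEFM, NEFL, NEFH, INA, STMN1, STMN2, MAP1B, MAP2, UCHL1 and SOX11. The genes were selected on their measured levels in the HEK293T and A549 T12 libraries, under the heading of neuronal genes of HEK293T, so the comparison of the cell lines below is a description and carries no test. Each gene was represented by the deposited transcript entry with the most reads.

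The study primed reverse transcription of total RNA with different oligo(dT) primers, in wild-type cells grown in culture. HEK293T is a transformed line from human embryonic kidney, and A549 comes from a carcinoma of the lung; each was grown in its own medium with serum. Of 9 libraries, 7 had gene counts: HEK293T with each of 6 primers (1 library each, the T12 library being replicate 1) and A549 with primer T12 (replicate 2). Every group therefore had 1 counted library and no replicate of its own. The other 2 libraries were not used here.

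The listed genes did not all follow the heading of neuronal genes of HEK293T. Those that did cannot bear it out, because the genes were selected on these levels. NEFM, NEFL and STMN1 were higher in HEK293T than in A549, STMN1 by 1.71-fold in the T12 libraries. INA, MAP2 and UCHL1 were higher in A549 than in any HEK293T library, and MAP1B was higher in A549 than in the matching T12 library but lay within the range of the HEK293T primers. NEFH, STMN2 and SOX11 had 0 reads or close to 0 in both lines. The genes are therefore treated below as a list and not as a shared character of HEK293T.

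As background, neurofilament light, medium and heavy chains (NEFL, NEFM, NEFH) and alpha-internexin (INA) assemble together into filaments that fill axons and set their calibre. Stathmins bind tubulin and destabilise microtubules, whereas MAP1B and MAP2 bind to microtubules and stabilise them, MAP1B mainly in growing axons and MAP2 mainly in dendrites. HEK293 cells were derived from embryonic kidney, yet they have long been known to make neurofilament proteins.

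The primers decide where on a transcript a read can begin, and they are shown because every level below was measured through one of them. T12, T18 and T30 are unanchored, with a run of 12, 18 or 30 T. The anchored primers T18V, T18VN and T18VNN carry 18 T and then 1, 2 or 3 further bases, the first of which (V) is any base but T, while N is any base. The design text prints the name T12VN above the primer with 18 T and 2 anchor bases; the sample label T18VN is used here. The 3 unanchored primers are printed 5′ to 3′ with the adaptor in lower case and the T run in capitals, and the anchored ones are the T18 sequence followed by V, VN or VNN.
T12: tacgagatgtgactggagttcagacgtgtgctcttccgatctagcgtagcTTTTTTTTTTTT
T18: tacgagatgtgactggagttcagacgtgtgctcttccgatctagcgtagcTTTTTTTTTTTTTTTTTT
T30: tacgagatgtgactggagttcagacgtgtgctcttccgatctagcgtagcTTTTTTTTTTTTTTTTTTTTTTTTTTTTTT

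An oligo(dT) primer can pair with a poly(A) tail and also with A-rich stretches inside a transcript, so the transcript ends were read from reference transcripts (GENCODE 29, GRCh38). The polyadenylation signal AATAAA, searched on the transcript strand, lay in the last 50 bases of the transcript of every listed gene but NEFH and STMN2, and of 59.2% of 17554 coding genes. The last 30 bases of MAP1B, STMN1 and UCHL1 are shown with the signal in capitals; in INA it lies further from the end.
MAP1B end: acAATAAAatacaaaagtggcaaaagttca
STMN1 end: tattAATAAAactttatgtactgctgtagc
UCHL1 end: aaggAATAAAacttttctgctgataagata

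MAP1B differed from the other well measured genes on the list in having a long internal run of A close to its end. That run was 11 bases long, lay in the 3′ UTR and ended 39 bases before the end of the transcript. It is shown with its flanks, the run in capitals, because MAP1B also varied most between primers among the well measured genes listed.
MAP1B internal run: atgtaaaggAAAAAAAAAAActcagttcca

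A run of at least 11 A occurred in 12.6% of the same coding genes, whose median longest run was 6. The longest run was 4 bases in STMN1, 5 in UCHL1, 6 in NEFM and in NEFL, and 7 in INA. Genes with few or no reads held runs as well: 9 bases in MAP2 and 14 in SOX11, which is longer than that of MAP1B, and 13 in STMN2, for which a short transcript was matched. Matches of this kind describe the letters only, and whether primers started at the MAP1B run was not tested.

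Reads assigned to genes numbered 2215977 to 5200705 in the HEK293T libraries and 1498224 in A549, and levels are given as counts scaled to a total of 1e6 of these gene reads (CPM). Gene reads made up 11.7% to 37.5% of all reads of a HEK293T library and 13.5% in A549, with the anchored primers at 27.7% or above and the unanchored at 20.3% or below. In the T18 library 7.20% of gene reads fell on ZNF557, a zinc finger gene that is not on the list. A count of 3 reads, used as the floor for a gene at 0, corresponds to 0.577 to 1.35 CPM in HEK293T and 2.00 CPM in A549. Intervals of single libraries and of ratios are exact 95% intervals and cover counting error only, since the reads carry no molecular identifiers. In bulk RNA, fewer expressing cells and less RNA per cell cannot be told apart.

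NEFM was the dominant neurofilament gene of HEK293T. Its gene lies on chromosome 8, positions 24771274 to 24776606 (plus strand, GRCh37/hg19, as are all gene positions below). NEFM measured 1379 CPM in the T12 library, 1135 in T18, 906 in T30, 1089 in T18V, 1743 in T18VN and 1815 in T18VNN, from 2007 to 7809 reads. T18VN and T18VNN were the high libraries and T30 the low one, and the anchored library T18V fell among the unanchored ones. By CPM, NEFM ranked between place 54 and place 154 of all genes in a HEK293T library. In A549 NEFM had 0 reads.

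NEFL is the subunit that neurofilaments need to assemble, and its gene neighbours NEFM on chromosome 8 (24808468 to 24814383, minus strand). NEFL measured 103 CPM in the T12 library, 79.8 in T18, 74.9 in T30, 41.6 in T18V, 91.3 in T18VN and 81.7 in T18VNN, from 117 to 415 reads. T18V was the low library and the other 5 lay within 1.37-fold of each other. NEFL also had 0 reads in A549.

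Genes were compared with each other as FPKM (the count divided by transcript length and by all reads of the library). Whether reads grow with transcript length under these primers was not tested, so such comparisons hold for the FPKM scale only. On that scale NEFM was 14.2 to 30.7 times NEFL in the HEK293T libraries, with the highest ratio in T18V. NEFM made up 92.9% to 95.1% of the summed FPKM of the 4 neurofilament genes in every HEK293T library. INA made up 0.469% to 2.06% of that sum in HEK293T and all of it in A549, where it alone of the 4 had reads.

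INA (chromosome 10, 105036920 to 105050108, plus strand) is the neurofilament subunit made early in neuronal development. INA measured 7.35 CPM in the T12 library, 18.1 in T18, 4.51 in T30, 23.5 in T18V, 21.2 in T18VN and 24.2 in T18VNN, from 10 to 95 reads. All 3 anchored libraries were above all 3 unanchored ones, with T30 and T12 lowest. In A549 INA measured 45.4 CPM (68 reads), above each HEK293T library. The interval in A549, 35.2 to 57.5 CPM, did not overlap that of T18VNN, 19.4 to 29.8 CPM.

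NEFH (chromosome 22, 29876181 to 29887279, plus strand) is the heavy chain of mature axons, and its reads were near 0. It had 9 reads with T18V, 1 with T18 and 0 in the other 4 HEK293T libraries and in A549. The 9 reads of T18V corresponded to 3.20 CPM (1.46 to 6.08).

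STMN1 (chromosome 1, 26226607 to 26232644, minus strand) encodes stathmin, which is found in dividing cells as well as in neurons. STMN1 measured 468 CPM in the T12 library, 463 in T18, 462 in T30, 560 in T18V, 571 in T18VN and 723 in T18VNN, from 1023 to 2600 reads. The unanchored libraries were almost level, and all 3 anchored libraries lay above them. A549 had 274 CPM (410 reads), below all 6 HEK293T libraries. Of its 4 transcript entries, 3 shared the same reads, and the fourth, which reaches further downstream, had 0 to 17 reads in any library.

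STMN2 (chromosome 8, 80523049 to 80578410, plus strand), the stathmin of neuronal growth cones, had 0 reads in all 7 libraries. The floor was 0.577 CPM in the deepest library, T18, and 2.00 CPM in A549.

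MAP1B (chromosome 5, 71403095 to 71505397, plus strand) varied more with the primer than any other well measured gene on the list. MAP1B measured 40.1 CPM in the T12 library, 192 in T18, 347 in T30, 385 in T18V, 303 in T18VN and 501 in T18VNN, from 131 to 1801 reads. T12 stood far below the rest, and T30 reached the levels of the anchored libraries. A549, primed with T12, had 228 CPM (342 reads), above HEK293T T12 and T18 and below the other 4.

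MAP2 (chromosome 2, 210444403 to 210598834, plus strand) was close to the limit of detection in HEK293T. It had 13 reads in the T12 library, 38 in T18, 1 in T30, 0 in T18V, 6 in T18VN and 33 in T18VNN, which is at most 9.18 CPM. The high and low libraries fell in both primer classes. In A549 MAP2 had 133 reads, or 88.8 CPM.

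UCHL1 (chromosome 4, 41258898 to 41270446, plus strand) encodes the ubiquitin hydrolase PGP9.5, abundant in neurons and neuroendocrine cells. UCHL1 measured 139 CPM in the T12 library, 113 in T18, 156 in T30, 92.5 in T18V, 94.8 in T18VN and 147 in T18VNN, from 260 to 587 reads. High and low libraries were found in both primer classes. A549 had 535 CPM (802 reads), above all 6.

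SOX11 (chromosome 2, 5832799 to 5841517, plus strand), a transcription factor of immature neurons, had 7 reads with T30, 3 with T18VNN, 1 each with T18 and T18VN, and 0 in T12, T18V and A549. The 7 reads of T30 were 3.16 CPM (1.27 to 6.51).

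**Figure D1:**
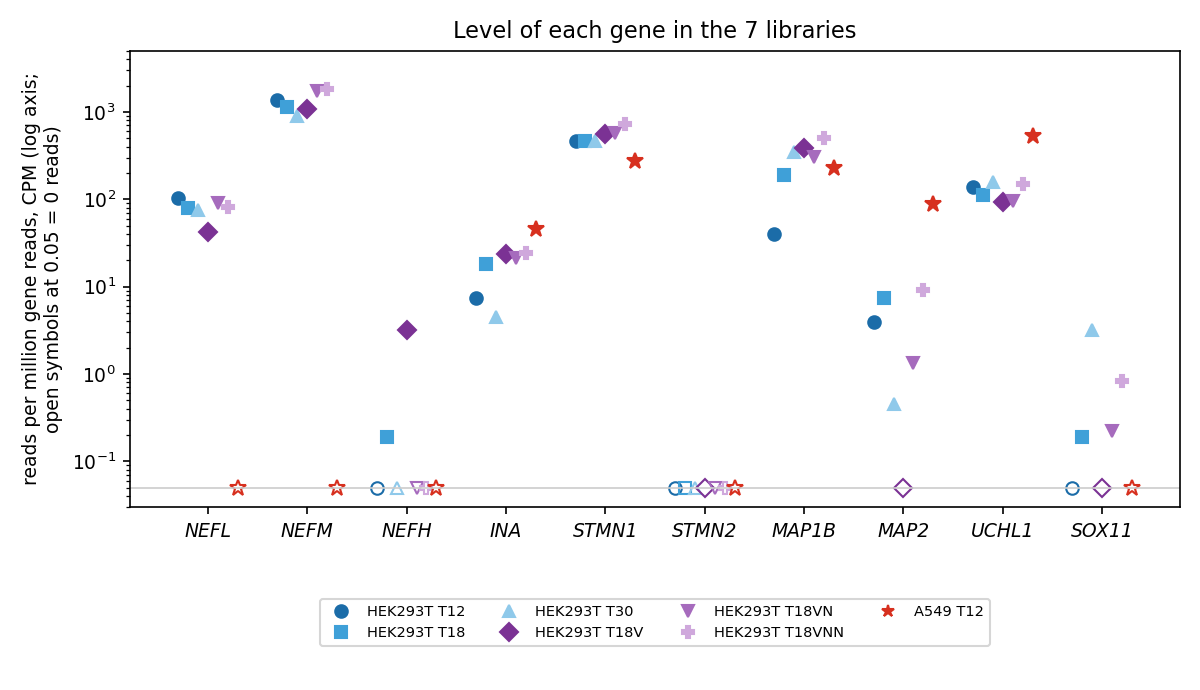
Level of each of the 10 genes (x axis) as CPM on a log axis (y axis), with 1 symbol per library, blue for unanchored and purple for anchored HEK293T primers and a red star for A549; open symbols mark 0 reads. NEFM lies at 906 to 1815 CPM in HEK293T and at 0 reads in A549, and STMN2 is at 0 reads in all 7 libraries.

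In T12-primed HEK293T the order by FPKM was NEFM (72.8), STMN1 (47.2), UCHL1 (21.3), NEFL (4.62), MAP1B (0.577), INA (0.393) and MAP2 (0.0728). In A549 the order was UCHL1 (64.1), STMN1 (21.5), MAP1B (2.56), INA (1.89) and MAP2 (1.27), with the other genes at 0. These orders depend on the division by length: by CPM in A549, MAP1B (228), the longest transcript, lay close to STMN1 (274). MAP1B and INA, next to each other in both orders, differed less between themselves in A549 than MAP1B did between HEK293T primers, where its FPKM ran from 0.577 to 12.04. All 10 genes together took 0.195% to 0.330% of the gene reads of a HEK293T library and 0.117% in A549. NEFM alone gave 46.4% to 64.4% of the list's reads in HEK293T.

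The libraries of A549 and HEK293T that share primer T12 were set side by side to ask how the lines differ. NEFM was at least 688-fold lower in A549 and NEFL at least 51.4-fold lower, counting A549 at its floor of 3 reads. STMN1 was 1.71-fold higher in HEK293T (interval 1.53 to 1.91). Another 4 listed genes went the other way: INA was 6.18-fold higher in A549 (3.83 to 10.3), MAP1B 5.69-fold (4.64 to 7.01), MAP2 22.3-fold (12.6 to 43.0) and UCHL1 3.86-fold (3.43 to 4.34). No fold is given for NEFH, STMN2 and SOX11, which had 0 reads in both libraries.

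A gene was counted as higher or lower at a 2-fold ratio of CPM + 1, provided that the higher library had 20 reads or more. Of the 7 listed genes with that many reads, 2 were lower in A549 (NEFM and NEFL), against 29.2% of 10145 genes. Another 4 were higher (INA, MAP1B, MAP2 and UCHL1), against 31.0% of genes. Since the list was drawn up with this comparison known, nothing is read from these shares. The median log2 ratio of A549 over HEK293T was 1.94 for the 7 genes and 0.02 for all genes.

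These ratios were also read against the whole range of HEK293T primers. A549 lay below all 6 HEK293T libraries for NEFM, NEFL and STMN1 (28.8% of all genes did so) and above all 6 for INA, MAP2 and UCHL1 (33.8% of all genes). Both limits together were met by 2 genes downward (22.1% of all genes) and by 3 upward (26.4%). INA lost its 2-fold difference against T18V (log2 ratio 0.92) and T18VNN (0.88). MAP1B lay inside the range, and its direction depended on the HEK293T library: the log2 ratio was 2.48 against T12 and 0.25 against T18, but -0.60 against T30, -0.75 against T18V, -0.41 against T18VN and -1.13 against T18VNN. All but the comparison against T12 also differ in primer. STMN1 passed the 2-fold limit when other scale factors were used, with a log2 ratio of -1.05 under TMM, the scale factors of edgeR, and -1.11 on the deposited FPM scale; TMM moved the median of all genes from 0.02 to -0.24.

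**Figure D2:**
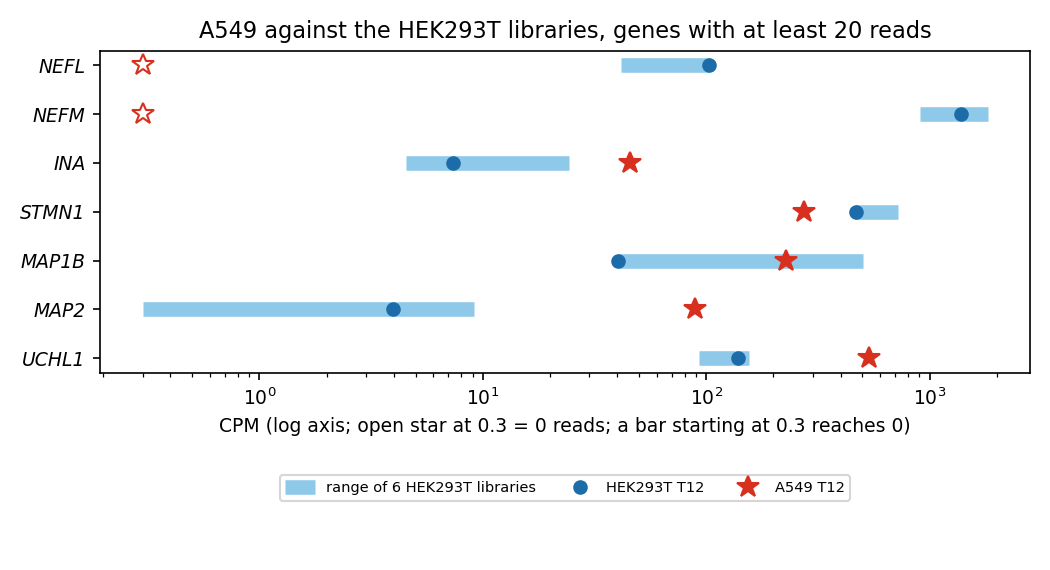
CPM on a log axis (x axis) for the 7 genes with at least 20 reads (y axis): the bar spans the 6 HEK293T libraries, the dot is HEK293T T12 and the star A549 T12, open at 0 reads. The A549 star lies left of the bar for NEFM, NEFL and STMN1, inside it for MAP1B and right of it for INA, MAP2 and UCHL1.

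Within HEK293T, the 3 anchored libraries were compared with the 3 unanchored ones to ask whether an anchor moves the measured level of a gene. With edgeR's quasi-likelihood test and Benjamini-Hochberg adjustment over all genes, 0 of the 7 listed genes that were tested passed an adjusted p of 0.05, against 1.35% of all 10887 genes (147 genes, so that a count of 0 of 7 is near the background: 85, or 0.781%, higher and 62, or 0.569%, lower with an anchor; 152 and 57 without scale factors). At an unadjusted p under 0.05 the count was also 0 of 7, against 15.6% of all genes. DESeq2 called 0 of the listed genes, but gave no adjusted p for MAP2. NEFH, STMN2 and SOX11 had too few reads to be tested. The primers of a class stand in for replicates here, so the test measures the spread between primers and not between cultures.

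INA had the smallest adjusted p. Its mean was 9.98 ± 7.15 CPM (SD, n = 3) with unanchored and 23.0 ± 1.56 CPM with anchored primers. Means here and in the next paragraph are of CPM. The log2 differences come from the edgeR fit with TMM, so they need not match the ratio of the means. For INA the fitted log2 difference was 1.00 with SE 0.55 (adjusted p = 0.416 by edgeR). The interval of that difference, -0.21 to 2.21, includes both no change and a difference of more than 4-fold. MAP1B averaged 193 ± 153 CPM unanchored and 396 ± 99.5 CPM anchored (log2 fold change 0.84, SE 0.58, adjusted p = 0.539 by edgeR). The MAP1B interval ran from -0.43 to 2.12, and T30 lay inside the range of the anchored libraries.

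NEFM averaged 1140 ± 236 CPM unanchored and 1549 ± 400 CPM anchored. Its fitted log2 difference was 0.28 (interval -0.36 to 0.91, adjusted p = 0.721 by edgeR), and 0.44 in the fit without scale factors. STMN1 averaged 464 ± 3.53 and 618 ± 91.1 CPM, with a fitted log2 difference of 0.24 (-0.34 to 0.82, adjusted p = 0.734 by edgeR). NEFL and UCHL1 had negative estimates, of -0.43 (-1.22 to 0.36) and -0.46 (-1.17 to 0.25). The MAP2 interval, -3.17 to 2.46, was too wide to place its difference. Thus the NEFM, NEFL, STMN1 and UCHL1 intervals leave room for changes of up to about 1.2 on the log2 scale in one direction, and a failed test does not show that the primers measured these genes alike.

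Some of these genes separated the classes without passing the test. All 3 anchored libraries lay above all 3 unanchored ones for INA and STMN1, which is 2 of the 7 tested, against 16.8% of all genes. No listed gene lay wholly below, against 6.80% of all genes, and 23.6% of all genes separated the classes in either direction. The median size of the log2 difference was 0.43 for the 7 genes and 0.51 for all tested genes.

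**Figure D3:**
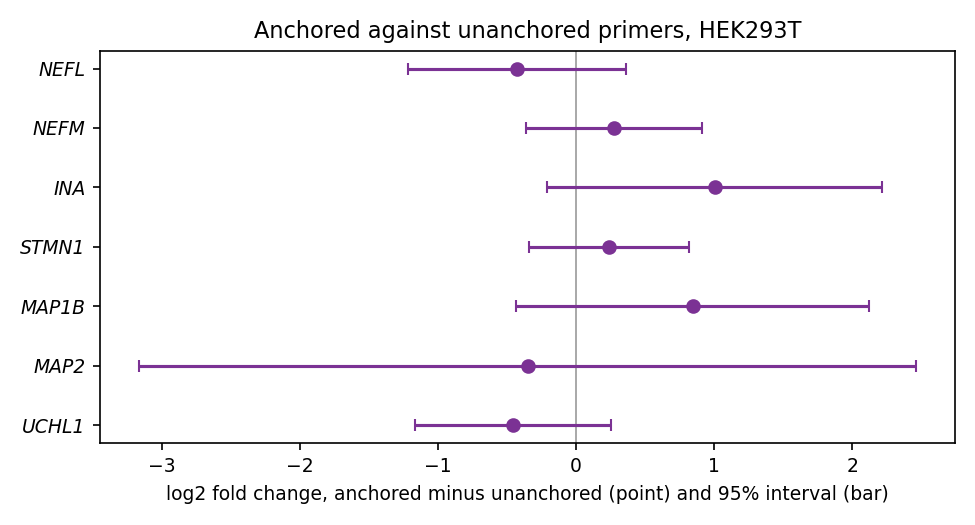
Log2 fold change of anchored over unanchored HEK293T libraries (x axis, point) with its 95% interval (bar) for the 7 tested genes (y axis). Every bar crosses 0, and the MAP2 bar is the widest, from -3.17 to 2.46.

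The scale mattered for NEFM, MAP1B and UCHL1. As FPKM, which divides by all reads of the library and not by gene reads, NEFM measured 72.8 (T12), 70.5 (T18) and 32.3 (T30) in the unanchored libraries and 124.9 (T18V), 149.6 (T18VN) and 154.0 (T18VNN) in the anchored ones. MAP1B measured 0.577 to 3.37 FPKM unanchored and 7.08 to 12.04 anchored, and UCHL1 16.2 to 21.3 unanchored and 23.7 to 36.4 anchored. On this scale all 3 anchored libraries lay above all 3 unanchored ones for NEFM, MAP1B and UCHL1, whereas by CPM their classes overlapped. For UCHL1 the direction also turned, since its edgeR estimate was lower with an anchor (log2 -0.46 with TMM, -0.28 without scale factors). INA and STMN1 separated the classes on both scales, and NEFL on neither. The share of reads on genes was also higher in the anchored libraries (above). For a given gene, CPM and FPKM use the same count and a fixed transcript length. Between libraries these scales therefore differ only by that share. Why the share differed between the classes was not tested.

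Across the 6 primers the listed genes varied by different amounts. The highest over the lowest CPM was 1.57 for STMN1, 1.69 for UCHL1, 2.00 for NEFM, 2.47 for NEFL, 5.36 for INA and 12.5 for MAP1B. These are the 6 listed genes with more than 3 reads in every HEK293T library; for the other 4 no ratio is given. A ratio of at least 2 was reached by 4 of the 6, against 83.8% of 9394 genes measured the same way, whose median ratio was 3.28 with quartiles at 2.30 and 5.06. STMN1, UCHL1 and NEFM thus lay below the lower quartile of these genes and MAP1B and INA above the upper one. The 9394 genes needed only 20 reads in their highest library, and counting error widens such ratios at low counts. No comparison with genes of like level was made. Single libraries set some of these ratios: without T12 the MAP1B ratio was 2.61, without T30 the INA ratio was 3.29, and without T18V the NEFL ratio was 1.37. On the deposited FPM scale the ratios were 4.76 for NEFM, 3.90 for STMN1, 16.7 for INA and 20.9 for MAP1B, and the median over all genes was 5.42.

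The length of the T run was compared among unanchored primers, with 1 library each and so without a test. MAP1B was 4.78-fold higher with T18 than with T12 (3.98 to 5.78) and 8.64-fold higher with T30 than with T12 (7.17 to 10.5). A level at least 2-fold higher with T18 than with T12 was seen for MAP1B and INA, which is 2 of 7 listed genes, against 16.2% of all genes. With T30 it was seen for MAP1B only among 6 listed genes, against 14.9% of all genes. No listed gene was at least 2-fold lower with T18 (0 of 7, against 13.0%) or with T30 (0 of 6, against 22.1%). INA was 2.46-fold higher with T18 than with T12 (1.56 to 4.03), but with T30 its ratio to T12 was 0.614 (0.262 to 1.33). NEFM was lower with longer runs, at 0.823 of T12 with T18 (0.792 to 0.856) and 0.657 with T30 (0.623 to 0.693). STMN1 stayed within counting error of T12, at 0.988 (0.926 to 1.05) with T18 and 0.986 (0.910 to 1.07) with T30.

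Anchors were then compared on the same run of 18 T. MAP1B was 2.01-fold higher with T18V than with T18 (1.84 to 2.19), 1.58-fold with T18VN (1.45 to 1.71) and 2.61-fold with T18VNN (2.42 to 2.83). NEFM was at 0.960 of T18 with T18V (0.919 to 1.00), but 1.54-fold higher with T18VN (1.48 to 1.59) and 1.60-fold higher with T18VNN (1.54 to 1.66). NEFL with T18V was at 0.522 of T18 (0.421 to 0.642), so that the neighbours NEFM and NEFL did not move together in that library. A level at least 2-fold that of T18 was seen for MAP1B with T18V (1 of 7 listed genes, against 16.1% of all genes) and with T18VNN (1 of 7, against 19.4%), and for none with T18VN (0 of 7, against 19.8%). MAP2 was at least 2-fold lower with T18V (1 of 7, against 16.3%) and with T18VN (1 of 7, against 11.6%), both on 38 reads or fewer, and no listed gene was with T18VNN (0 of 7, against 13.4%).

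**Figure D4:**
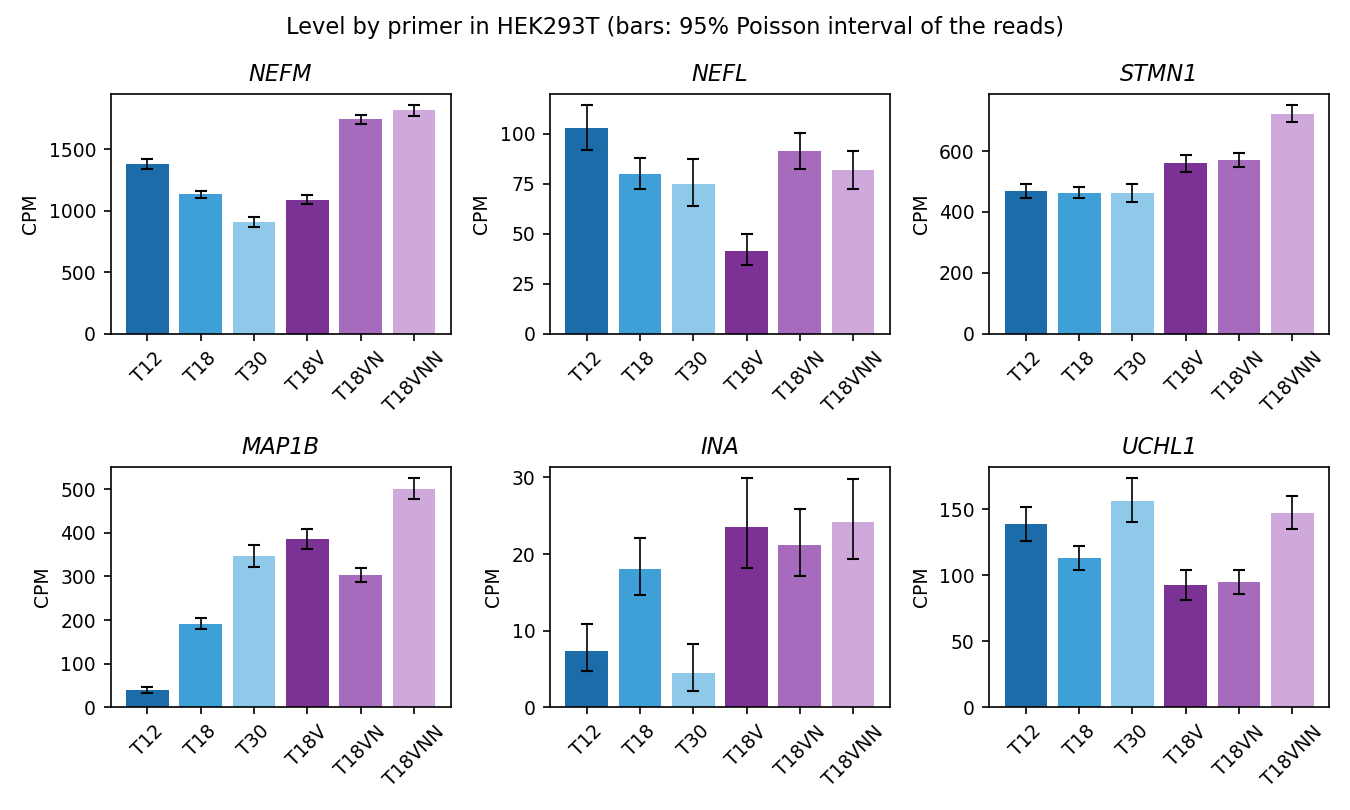
CPM (y axis) by HEK293T primer (x axis) for 6 of the genes, with bars for the level and error bars for the 95% Poisson interval of the reads; each panel has its own scale from 0. MAP1B runs from 40.1 with T12 to 501 with T18VNN, while STMN1 stays between 462 and 723.

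Genes with the profile most like NEFM over the 7 libraries were sought among 9447 genes, by the distance between log2(CPM + 1) profiles centred on their own mean. The nearest was AMOT, an angiomotin of cell junctions, at a distance of 0.87, with 2143 to 2975 CPM in HEK293T and 1.33 CPM in A549. HLA-C (1.66), CDX2 (1.84), HLA-B (1.87) and CDKN2A (1.87) followed, all at 0 reads in A549. HLA-B and HLA-C were listed on several haplotype sequences, so their counts are uncertain. For UCHL1 the nearest were C19orf12 (0.28), RAB5A (0.55), LITAF (0.57), NAA20 (0.59) and CUX1 (0.60). The UCHL1 profile, like that of C19orf12 (29.2 to 54.5 CPM in HEK293T and 195 in A549), was higher in A549 than with any HEK293T primer.

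Other genes of the same systems were read from lists, with the same 2-fold rule for A549 against HEK293T T12. Over all genes, 31.0% were higher and 29.2% lower in A549 by this rule, and each list count below is to be read against these shares. Of 13 intermediate filament genes outside the 10, 9 had enough reads, and 7 were higher and 2 lower in A549. KRT7 was at least 1491-fold higher in A549, KRT8 280-fold and KRT18 92.0-fold; these are keratins of simple epithelia, and the entries of KRT8 and KRT18 overlap each other. LMNB2, a lamin of the nuclear envelope, was 7.50-fold higher in HEK293T. No filament gene passed the anchored test (0 of 8 at adjusted p by edgeR, against 1.35% of all genes, and 3 at an unadjusted p under 0.05, against 15.6%).

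Among 24 microtubule and axon genes, 18 had enough reads, and 10 were lower and 7 higher in A549, with a median log2 ratio of -1.81. GAP43, a protein of axonal growth cones, had 325 reads in HEK293T T12 and 0 in A549, at least 49.7-fold lower. KIF5C, a neuronal kinesin heavy chain, was at least 17.0-fold lower in A549, DPYSL5 13.6-fold lower and the tubulin gene TUBB2B 10.5-fold lower. TUBB2B has a near-identical tubulin paralog, so its counts are uncertain. TUBB3, a neuronal tubulin, was higher in A549 (129 CPM) than in any HEK293T library (12.8 to 34.0 CPM). So were BASP1 (469 against 55.3 to 92.9 CPM) and DPYSL3 (213 against 4.04 to 34.9 CPM). The same held for DPYSL2 (51.4 against 5.82 to 23.9 CPM) and KIF3C (105 against 26.6 to 50.4 CPM). TUBB3, BASP1, DPYSL3, DPYSL2 and KIF3C were named after their values were seen.

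The 23 neuronal identity and synaptic genes were mixed as well: of 14 with enough reads, 8 were higher and 2 lower in A549. CPLX2, a complexin of synaptic vesicle release, had 1592 reads in A549 and 0 in every HEK293T library, at least 1157-fold higher. SNAP25, a SNARE protein of the same step, was at least 42.9-fold higher in A549 and NRCAM, an adhesion molecule, 15.5-fold higher, while ELAVL2, a neuronal RNA-binding protein, was at least 11.01-fold lower. SNAP25 overlaps an antisense gene, and the use of strand in counting is not stated. NCAM1, the neural cell adhesion molecule, fell with anchored primers, with a log2 difference of -2.74 and SE 0.46 (adjusted p = 0.0166 by edgeR, 1 of 14 list genes tested, against 1.35% of all genes). NCAM1 overlaps 2 antisense genes, and its call was lost without T18V (adjusted p = 0.0736) and without T18VNN (adjusted p = 0.0809).

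HEK293T has been likened to the adrenal and sympathetic lineage, so genes of that lineage were read too. Of 24 such genes, 8 had 0 reads in all 7 libraries, among them TH, DBH and PNMT, enzymes of catecholamine synthesis. Of the 8 with enough reads, 4 were lower and 3 higher in A549. HAND1 was at least 31.2-fold and ISL1 at least 8.56-fold lower in A549, and GATA2 was 2.65-fold higher. The GATA2 level in A549, 34.0 CPM, lay only just above the HEK293T range of 11.3 to 32.5 CPM. The other 2 genes higher in A549, named after their values were seen, encode a secretory granule protein and a vesicular monoamine transporter of chromaffin cells: CHGB had 40 reads in A549 and 0 in every HEK293T library, and SLC18A2 had 32.04 CPM in A549 against 0.278 to 6.92 CPM in HEK293T. Of 22 neural transcription factor genes, 11 had enough reads, and 5 were lower and 3 higher in A549. EBF3 was at least 12.2-fold, POU4F1 6.95-fold and ZIC2 3.58-fold lower, whereas SOX2 was 3.53-fold higher. ISL1, POU4F1 and SOX2 overlap noncoding genes whose reads could not be told apart without strand. SOX4, a close relative of SOX11, had 1367 to 4260 reads in the HEK293T libraries, where SOX11 had at most 7; by CPM it was higher in A549 (1721) than in any HEK293T library (380 to 1121).

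Markers of the labelled tissues were read in the same libraries. Of 22 kidney lineage genes, 9 had enough reads: 4 were lower and 1 higher in A549, with SIX2 at least 80.1-fold and EYA1 at least 32.6-fold lower. Summed kidney list levels were 321 to 408 CPM in HEK293T and 148 CPM in A549, and CDH16, CUBN, SLC12A1 and AQP2, markers of mature nephron segments, were at 0 in all 7 libraries. EYA1 also fell with anchored primers, with a log2 difference of -2.01 and SE 0.44 (adjusted p = 0.0494 by edgeR), a call that was lost in 7 of 12 other analyses, 5 of them with 1 library left out. Of 18 lung and airway genes, 9 had enough reads, and 7 were higher and 2 lower in A549. FOXA2 was at least 471-fold and CDH1 48.5-fold higher in A549, and the summed lung list level was 2989 CPM there against 23.2 to 55.4 CPM in HEK293T. Most of that A549 sum came from KRT8 (1027 CPM) and KRT18 (1296 CPM), which are not particular to lung. The 2 lower genes, named after their values were seen, are of lung epithelium: the lung transcription factor NKX2-1 had 0 reads in A549 and 3.16 to 11.7 CPM in HEK293T, and the lipid transporter ABCA3 had 10.7 CPM in A549, within the HEK293T range of 0 to 26.3 CPM. The surfactant genes SFTPA1, SFTPB, SFTPC and SFTPD, which define alveolar cells, were at 0 in all 7 libraries.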

How the data were processed

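For 7 of 9 libraries the authors deposited counts of reads on each RefSeq transcript. Beside the count, the authors gave FPM, a signal scaled to all reads of the library, and FPKM, which also divides by transcript size, per the file headers. The submitters' processing notes name cutadapt 2.10, Trimmomatic 0.39, HISAT2 2.2.1, SAMtools and the build GRCh37/hg19; the counting rule for strand and for reads with several matches is not given in the sources used here. Of 61177 transcript entries, 60133 (98.3%) were named through RefSeq accessions, and 1044 were left out.

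For each gene the entry with the most reads was used. CPM scales the count to a total of 1e6 gene reads. HEK293T libraries were compared with edgeR 4.0.16 (filterByExpr, TMM, quasi-likelihood test, Benjamini-Hochberg adjustment over all genes tested) in R 4.3.3, checked on simulated counts, with DESeq2 1.42.0 as an alternative. The simulated counts had a smaller spread than these libraries and larger changes than those estimated for the listed genes. That check therefore does not show the power of the test for the listed genes. SE is the log2 fold change over the square root of F. A549 and HEK293T T12 had 1 library each and no test; ratios have exact conditional intervals, with a floor of 3 reads. Alternatives changed the pseudocount, scaling, filters, transcript entry or HEK293T library, or left a library out.

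The genes and lists were chosen with earlier results of these data known. Text names all 10 genes and up to 4 genes per list, those with the largest A549 to HEK293T T12 ratio, 50 or more reads in one of these libraries and an A549 level outside the HEK293T range, any list gene called in the anchored test, and the 5 profiles nearest to NEFM and to UCHL1 among genes with at least 50 reads in a library. Marker genes at 0, SOX4, TUBB3, BASP1, DPYSL3, DPYSL2, KIF3C, CHGB, SLC18A2, NKX2-1, ABCA3 and REST were added after their values were seen.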

Additional observations from a re-analysis of the deposited data

Results flagged for a closer look

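Each of the 7 listed genes with at least 20 reads in a HEK293T library was checked for a primer standing apart from the other 5. NEFL with primer T18V, at 41.6 CPM, was the 1 value that did so: the gap to the next library was 0.648 of the whole range on the log2(CPM + 1) scale, above the critical value of 0.625. Chance gives about 1 such value in 20 groups. The low library of MAP1B, T12, came close with a gap of 0.618.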

How the results depend on the processing

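The count of listed genes called in the anchored comparison was 0 under all 12 alternatives, with the smallest adjusted p (edgeR or DESeq2) between 0.209 and 0.578. In DESeq2, MAP2 had no adjusted p. The count over all genes was 597 with DESeq2 (282 higher, 315 lower) and 556 without a filter on low counts, against 147, and 46 to 111 with 1 library left out (46 without T18VNN, 54 without T30, 63 without T18V, 85 without T18). The cause was not tested. The estimate for MAP2 ran from -2.63 (without T18VNN) to 0.47 with 1 library left out and changed sign, to 0.47 without T18, 0.18 without T18V and 0.02 without T18VN. With another HEK293T library in place of T12, the number of listed genes at least 2-fold higher in A549 was 2 with T18V or T18VNN, where INA and MAP1B no longer passed the limit, and the number lower was 4 with T18VNN. MAP1B changed direction, to -0.60 with T30, -0.75 with T18V, -0.41 with T18VN and -1.13 with T18VNN. The number of listed genes with a primer ratio of at least 2 ran from 3 to 6. NEFM and NEFL stayed lower in A549 under all 11 alternatives, and INA, MAP2 and UCHL1 higher, though INA fell under 2-fold with T18V and T18VNN. All 11 reuse the 1 counted A549 library and the levels on which the genes were selected. With 0 reads in A549, NEFM and NEFL could not have changed direction, so nothing is read from this stability. No paired analysis was possible because the counted T12 libraries are replicate 1 of HEK293T and replicate 2 of A549, and the other primers have 1 library each with no number. Depth limits NEFH, STMN2, SOX11 and MAP2 in HEK293T, where counts were at or near the floor.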

Other observations

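Genes of the REST complex, which represses neuronal genes in other cells, were present in both lines. REST itself measured 12.9 CPM in HEK293T T12, 12.9 to 106 CPM over the HEK293T primers, and 16.7 CPM in A549, inside that range. Of 12 genes of the complex, 10 had enough reads, and 4 were lower and 2 higher in A549, against 29.2% and 31.0% of all genes. HDAC1, a histone deacetylase, was 6.28-fold lower in A549 and KDM1A, a histone demethylase, 2.74-fold lower, whereas CTDSP2, a phosphatase, was 2.06-fold higher. CTDSP2 fell under the 2-fold limit with TMM (log2 ratio 0.77) and on the deposited FPM scale (0.67). Its log2 ratio ran from 0.64 to 1.40 over 11 alternatives. SIN3A was 1.56-fold lower, under the 2-fold limit.

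Of 8 ubiquitin hydrolase and ubiquitin genes other than UCHL1, 0 were higher and 3 lower in A549, against 31.0% and 29.2% of all genes. RPS27A, a ribosomal protein fused to ubiquitin, was 4.79-fold lower in A549, and BAP1 3.72-fold and UCHL3 3.53-fold lower. RPS27A has processed pseudogene copies and UCHL3 overlaps an antisense gene, so their counts are uncertain. Of 13 glial genes, 6 had enough reads, and 3 were higher and 2 lower in A549, against the same shares. OLIG2, a transcription factor of oligodendrocytes, was at least 17.4-fold lower in A549 and MBP, myelin basic protein, 29.3-fold higher, while S100B, SOX10 and AQP4 were at 0 in all 7 libraries.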
